A study of Mus musculus with 24 samples.

Results

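A set of 10 genes listed as markers of the resident macrophages of the liver was followed in RNA from purified mouse hepatocytes. They were taken by name, as the rows of the count and FPKM tables for Clec4f, Vsig4, Timd4, Cd5l, Marco, Adgre1, C1qa, C1qb, C1qc and Csf1r, and all 10 were found among the 55421 genes listed. All 10 passed the filter on low counts that kept 13847 genes for testing. The rule picked rows by gene name alone, but the names were chosen with earlier results of these data known.

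The 24 libraries came from as many C57BL/6J male mice, whose hepatocytes were isolated by 2-step perfusion and sequenced as poly(A) RNA. The animals received vehicle or 42 ppm rapamycin in encapsulated form (eRapa), an inhibitor of the growth-regulating kinase complex mTORC1, from 4 months of age. From 18 months, 8 animals were kept on the normal diet and vehicle (ND+veh), 7 were given a high-fat diet with 60% of calories from fat and vehicle (HFD+veh), and 9 were given the high-fat diet with rapamycin (HFD+eRapa), in each case for 9 weeks. No group on normal diet received rapamycin through the last weeks, so the effect of the drug was compared only on the high-fat diet.

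Kupffer cells are the macrophages that reside in the liver sinusoids, where they clear particles, dying cells, bacteria and complement-coated material from portal blood. They depend on signals through the receptor Csf1r, and in mice Clec4f is a marker that other macrophages lack. When resident cells are lost, monocytes from blood can enter the sinusoid and take on Kupffer cell genes, usually gaining Timd4 late. In RNA from a bulk preparation, a change in the number of cells of a type and a change in RNA per cell cannot be told apart.

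The libraries were labelled as hepatocytes, and 9 hepatocyte genes, among them Alb, together took from 63670 to 157600 counts per M counts (CPM, M being 1000000) in each library. The 10 Kupffer cell genes together took from 14.3 CPM to 4934 CPM, which was 0.00143% to 0.493% of the counts. The libraries held 17.7 to 25.9 M counts each. The hepatocytes were purified by the study with repeated low-speed spins and a density step, which are meant to leave smaller cells behind. All libraries carry a single batch label, so no comparison within batches could be made. In the order of the sample list, ND+veh replicates 1 to 3 and HFD+veh replicates 1 and 2 came first, with 44.76 to 182.5 CPM of the 10 genes. HFD+eRapa replicates 5 to 9 came last, with 14.3 to 207.7 CPM, and the libraries between had 193 to 4934 CPM. What this order reflects is not stated, and its part in the group differences was not tested.

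The genes lie on 8 chromosomes of mm10, and the coordinates are those of the gene in the Gencode annotation. Clec4f (ENSMUSG00000014542.3, chromosome 6, 83644542 to 83656187), Vsig4 (ENSMUSG00000044206.3, chromosome X, 96247203 to 96293438) and Marco (ENSMUSG00000026390.7, chromosome 1, 120474538 to 120505024) are on the minus strand. Timd4 (ENSMUSG00000055546.6, chromosome 11, 46810800 to 46844332), Cd5l (ENSMUSG00000015854.7, chromosome 3, 87357881 to 87371073), Adgre1 (ENSMUSG00000004730.15, chromosome 17, 57358691 to 57483527) and Csf1r are on the plus strand. The genes of the C1q chains form a cluster of 18.7 kb on the minus strand of chromosome 4, in the order C1qb (ENSMUSG00000036905.8, 136880129 to 136886187), C1qc (ENSMUSG00000036896.5, 136889804 to 136893065) and C1qa (ENSMUSG00000036887.5, 136895917 to 136898803). All 10 are protein-coding genes, and each value below is a count over the whole gene.

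The bases just before the starts of the genes were also read from RefSeq (GRCm38.p6), which held 7 of the 10. C1qa, Adgre1 and Csf1r had no entry. C1qc was left out by name before the search, so the counts of matches do not cover it. In the other 6, a search was made on both strands for GAGGAA, the core that the macrophage factor PU.1 (gene Spi1) recognises. GAGGAA was present in 4 of the 5 windows of 250 bases (Vsig4, Cd5l, Marco and C1qb) and in 23.3% of all 32851 RefSeq windows of that length. The Timd4 window and the Clec4f window of 179 bases held no match, and 17.0% of all windows of the latter length held one. Windows are printed, for the pair of genes that did not pass the test under rapamycin (Clec4f and Vsig4) and for a pair with large changes (Cd5l and Marco), each read towards the gene, with the matches to GAGGAA in capitals.
Clec4f (chr6:83656188-83656366, minus strand): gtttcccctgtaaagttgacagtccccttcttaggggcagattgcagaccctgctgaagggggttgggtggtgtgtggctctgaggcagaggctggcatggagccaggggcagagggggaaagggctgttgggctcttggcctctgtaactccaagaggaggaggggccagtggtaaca
Vsig4 (chrX:96293439-96293688, minus strand): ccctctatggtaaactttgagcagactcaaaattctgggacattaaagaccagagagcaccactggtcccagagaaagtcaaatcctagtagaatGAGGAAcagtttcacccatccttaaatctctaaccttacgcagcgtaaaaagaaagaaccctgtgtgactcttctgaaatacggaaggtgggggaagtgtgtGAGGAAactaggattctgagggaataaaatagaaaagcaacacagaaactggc
Cd5l (chr3:87357631-87357880, plus strand): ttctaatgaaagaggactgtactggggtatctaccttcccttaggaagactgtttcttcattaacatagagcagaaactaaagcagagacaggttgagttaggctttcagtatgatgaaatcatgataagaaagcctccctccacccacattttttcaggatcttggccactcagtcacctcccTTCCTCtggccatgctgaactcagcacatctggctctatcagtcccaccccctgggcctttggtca
Marco (chr1:120505025-120505274, minus strand): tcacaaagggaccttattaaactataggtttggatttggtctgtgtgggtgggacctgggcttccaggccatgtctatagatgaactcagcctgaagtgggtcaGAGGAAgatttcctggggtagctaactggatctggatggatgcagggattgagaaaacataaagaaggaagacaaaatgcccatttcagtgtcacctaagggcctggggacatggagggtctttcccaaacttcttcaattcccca
In Vsig4 the matches to GAGGAA begin 155 and 53 bases before the start, and in Marco the match begins 146 bases before it. In Cd5l, GAGGAA is read on the other strand, beginning 66 bases before the start. A match is a description of the letters, and binding was not measured in these animals.

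The 10 genes were present in every library, and their levels within a group spread more widely than the group medians lay apart. Clec4f, a C-type lectin that binds galactose-bearing glycans, ran from 11.6 through a median of 61.3 to 296 CPM in ND+veh. In HFD+veh it ran from 39.1 through 360 to 729 CPM, and in HFD+eRapa from 3.81 through 51.6 to 231 CPM. The highest HFD+veh animals lay above every ND+veh animal, the lowest lay among them, and the lowest HFD+eRapa animals lay below both groups, so the groups overlapped. Overlap between groups was found for each of the 10 genes.

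**Figure D1:**
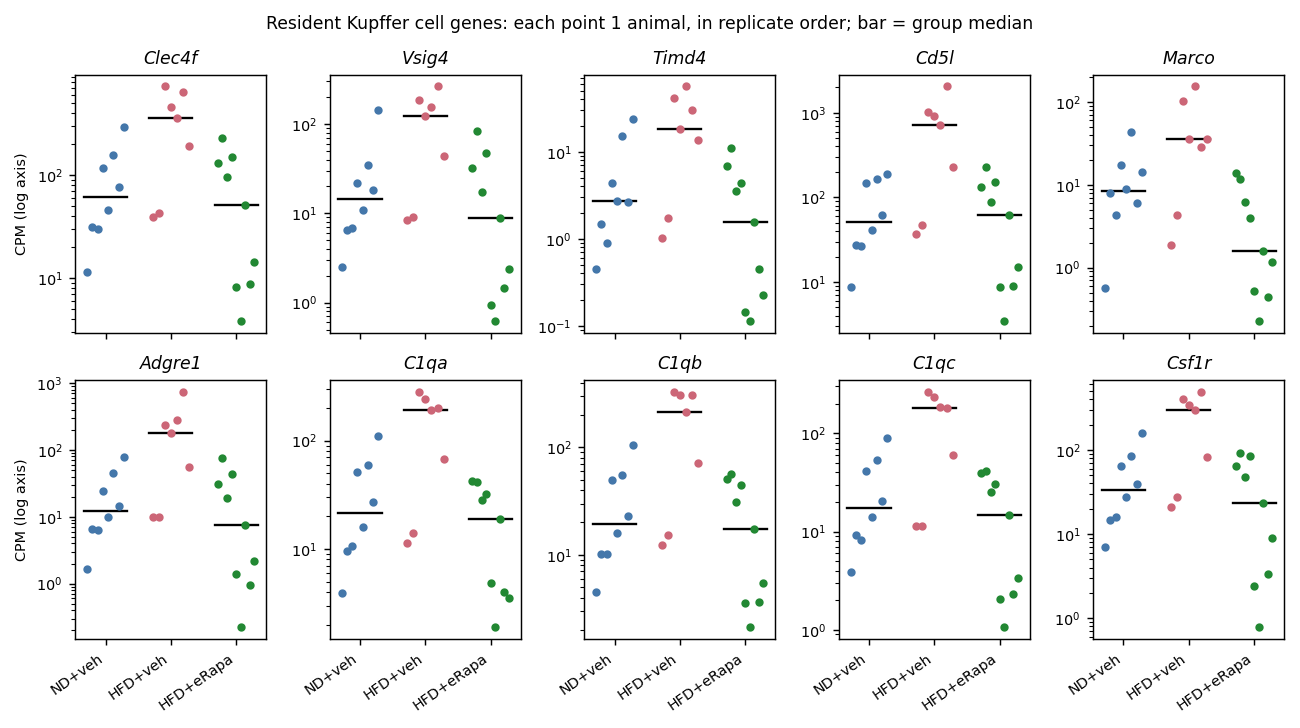
Level of each resident Kupffer cell gene in each animal, in CPM on a log axis, with the points of a group in replicate order and a bar at the group median. In HFD+veh, replicates 3 to 6 sit above nearly all other animals for most of the genes and replicates 1 and 2 sit among the ND+veh animals, and in HFD+eRapa, replicates 5, 6, 8 and 9 form a low set.

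The same animals were high or low for the whole set. Summed over the 10 genes, HFD+veh replicates 3, 4, 5 and 6 had 3598, 2865, 2612 and 4934 CPM, and no ND+veh animal passed 1210 CPM. HFD+veh replicate 7 had 852.5 CPM, and replicates 1 and 2 had 153.1 and 182.5 CPM, below the ND+veh median of 241.6 CPM. In HFD+eRapa, replicates 5, 6, 8 and 9 had 32.7, 14.3, 34.2 and 56.8 CPM, and the other 5 animals had 207.7 to 871.8 CPM. HFD+eRapa replicate 6 was the lowest of the 24 libraries for all 10 genes. The highest of the 24 was HFD+veh replicate 3 for 4 genes, replicate 6 for 4 genes and replicate 5 for 2 genes. Over the 24 libraries, Pearson's r between the log2 CPM of pairs of the genes ran from 0.892 (Vsig4 with Marco) to 0.995 (C1qb with C1qc). These values describe libraries in which all genes share the same cell preparation, and they carry no test.

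The high-fat diet was compared with normal diet in animals given vehicle, to see how the diet alone changed the Kupffer cell genes. All 10 genes had higher fitted levels in HFD+veh, and 3 of the 10 rose past the threshold in edgeR's quasi-likelihood test with Benjamini-Hochberg adjustment over all genes tested (adjusted p under 0.05). These were Cd5l, Adgre1 and C1qb. Among all genes tested, 16.0% were called higher and 9.86% lower, or 25.9% in either direction. Their log2 fold changes had a median of 2.04, against 0.05 over all genes.

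Cd5l, a secreted protein of tissue macrophages also known as apoptosis inhibitor of macrophages, ran from 8.68 through a median of 51.2 to 187 CPM in ND+veh and from 36.8 through 719 to 2057 CPM in HFD+veh. Its log2 fold change was 3.05 (SE 0.91, n = 8 and 7, edgeR adjusted p = 0.0189). The HFD+veh animals were spread over a 55.9-fold range, with replicates 3 to 7 above every ND+veh animal and replicates 1 and 2 inside the ND+veh range. Adgre1, the adhesion receptor known as F4/80, ran from 1.64 through 12.1 to 78.5 CPM in ND+veh and from 9.79 through 181 to 737 CPM in HFD+veh. It had the largest log2 fold change of the 10, at 3.11 (SE 1.05, edgeR adjusted p = 0.0329). The highest value, in HFD+veh replicate 6, was well above the next, 278 CPM in replicate 5.

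The complement chains moved side by side. C1q is the recognition unit of the classical complement pathway and is built from A, B and C chains, which in the body come largely from macrophages. C1qb ran from 4.51 through 19.5 to 104 CPM in ND+veh and from 12.5 through 215 to 327 CPM in HFD+veh, and its log2 fold change was 2.30 (SE 0.81, edgeR adjusted p = 0.0394). C1qa was higher by 1.91 on the log2 scale (SE 0.77, adjusted p = 0.0691 in edgeR) and C1qc by 2.09 (SE 0.82, adjusted p = 0.0613), neither of which passed the threshold. Replicates 3 to 6 of HFD+veh were above every ND+veh animal for all of the chains, and replicates 1, 2 and 7 were not.

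The other 5 genes had log2 fold changes of 1.77 to 2.10 and did not pass the test. Csf1r (ENSMUSG00000024621.16, chromosome 18, 61100598 to 61132149), the receptor for the macrophage growth factors Csf1 and Il34, ran from 6.99 through 33.8 to 160 CPM in ND+veh and from 20.9 through 297 to 488 CPM in HFD+veh, a fitted log2 difference of 2.10 (SE 0.86, adjusted p = 0.0742 in edgeR). Marco, a scavenger receptor that binds bacteria and modified lipoproteins, had a fitted log2 difference of 1.99 (SE 0.87, adjusted p = 0.0917 in edgeR) and a median of 8.45 CPM in ND+veh and 35.9 CPM in HFD+veh. For Clec4f it was 1.79 (SE 0.82, adjusted p = 0.108 in edgeR). Vsig4, a receptor for complement fragments on bacteria, had one of 1.77 (SE 0.98, adjusted p = 0.183 in edgeR), with medians of 14.6 and 124 CPM. Timd4, a receptor for phosphatidylserine on dying cells, had one of 1.78 (SE 0.94, adjusted p = 0.164 in edgeR), with medians of 2.69 and 18.3 CPM.

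The number of genes called in this comparison depended on single animals. Without HFD+veh replicate 6 it was 0 of 10, with the adjusted p of Cd5l at 0.0647 and its log2 fold change at 2.46. It was 1 of 10, namely Cd5l, without HFD+veh replicate 3 or without ND+veh replicate 1, 2, 3, 4, 5 or 7. It was 6 of 10 without HFD+veh replicate 1 or 2, and 8 of 10 without ND+veh replicate 8. Of all genes, 2106 were called without HFD+veh replicate 6 and 2509 without replicate 3, against 3584 with all animals. The count over all genes was 4268 and 4479 without HFD+veh replicates 1 and 2, and 4013 without ND+veh replicate 8. It ran from 2617 to 3593 without ND+veh replicate 1, 2, 3, 4, 5 or 7. Of the 15 fits that left out an animal, Cd5l was called in 14, Adgre1 in 7 and C1qb in 5, and the log2 fold change of each of the 10 genes was above 0 in all 15.

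**Figure D2:**
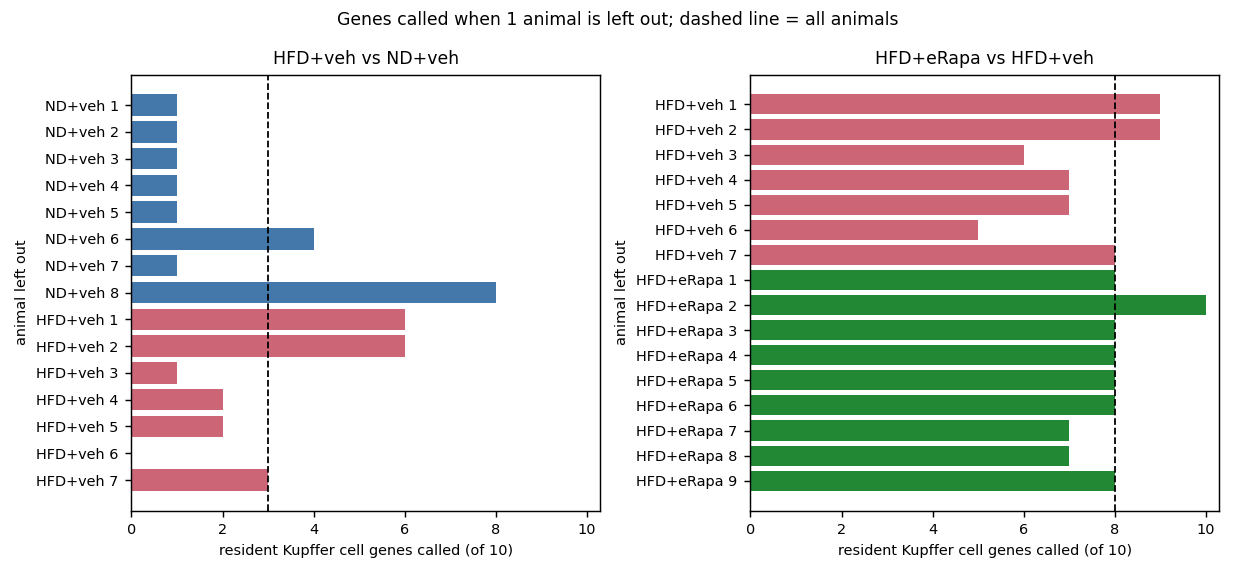
Number of the 10 resident Kupffer cell genes called when 1 animal was left out of the edgeR fit, for the diet comparison and the rapamycin comparison, with a dashed line at the number with all animals. The diet count runs from 0 without HFD+veh replicate 6 to 8 without ND+veh replicate 8, and the rapamycin count from 5 without HFD+veh replicate 6 to 10 without HFD+eRapa replicate 2.

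Rapamycin was then compared with vehicle on the high-fat diet. All 10 genes had lower fitted levels in HFD+eRapa, and 8 of the 10 fell past the threshold, against 21.1% of all genes called lower, 10.9% called higher and 32.0% in either direction. Their log2 fold changes had a median of -2.70, against -0.04 over all genes. The HFD+veh animals serve in both this and the diet comparison, so their spread enters both.

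Marco fell most. It ran from 1.88 through a median of 35.9 to 155 CPM in HFD+veh and from 0.224 through 1.57 to 14.0 CPM in HFD+eRapa, a drop with log2 fold change -3.41 (SE 0.88, n = 9 and 7, edgeR adjusted p = 0.00601). Only HFD+veh replicates 1 and 2, at 1.88 and 4.27 CPM, were inside the HFD+eRapa range. Cd5l ran from 3.42 through 62.0 to 230 CPM in HFD+eRapa, against 36.8 to 2057 CPM in HFD+veh, and its log2 fold change was -3.00 (SE 0.87, edgeR adjusted p = 0.0112). Adgre1 ran from 0.224 through 7.47 to 75.3 CPM in HFD+eRapa, and its log2 fold change was -3.20 (SE 1.01, edgeR adjusted p = 0.0184). For both genes, HFD+eRapa replicate 2 was the highest of its group.

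The chains of C1q fell by similar amounts, with log2 fold changes of -2.68 for C1qa (SE 0.76, edgeR adjusted p = 0.0101), -2.70 for C1qb (SE 0.79, edgeR adjusted p = 0.0117) and -2.73 for C1qc (SE 0.80, edgeR adjusted p = 0.0123). C1qa ran from 1.91 through 19.1 to 42.1 CPM in HFD+eRapa and from 11.4 through 191 to 281 CPM in HFD+veh. HFD+veh replicates 3 to 7 lay above every HFD+eRapa animal for each chain, and replicates 1 and 2 lay inside the HFD+eRapa range.

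Csf1r fell by 2.51 on the log2 scale (SE 0.84, edgeR adjusted p = 0.0257), from a median of 297 CPM in HFD+veh to 23.2 CPM in HFD+eRapa. Timd4 fell by 2.70 (SE 0.94, edgeR adjusted p = 0.0310), from a median of 18.3 to 1.57 CPM. In HFD+eRapa replicate 6, Timd4 rested on 2 counts, or 0.112 CPM (95% Wilson interval 0.0308 to 0.409). For Clec4f the log2 fold change was -1.99 (SE 0.80, edgeR adjusted p = 0.0601) and for Vsig4 it was -2.18 (SE 0.96, edgeR adjusted p = 0.0846), and neither passed the threshold. Vsig4 ran from 0.617 through 8.94 to 82.5 CPM in HFD+eRapa, and 6 of 9 values were below 20 CPM, while HFD+veh replicates 3 to 6 were above 120 CPM.

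This count also moved with single animals. It was 5 of 10 without HFD+veh replicate 6, where the adjusted p rose to 0.0797 for Adgre1, 0.0595 for Timd4 and 0.0722 for Csf1r, and 10 of 10 without HFD+eRapa replicate 2, where Clec4f (adjusted p = 0.0228) and Vsig4 (adjusted p = 0.0256) were also called. Of all genes, 3269 and 4699 were called in these fits, against 4432 with all animals. Marco, Cd5l and the chains of C1q were called in all 16 fits that left out an animal. Adgre1 was called in 15, Csf1r in 13 and Timd4 in 11.

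HFD+eRapa animals were last compared with ND+veh animals, which differ in both diet and drug. None of the 10 genes passed the test in edgeR, against 13.5% of all genes (6.93% higher and 6.54% lower), and none had an unadjusted p under 0.05 in edgeR, DESeq2 or limma voom. The log2 fold changes ran from -1.42 for Marco (SE 0.83, n = 9 and 8, edgeR adjusted p = 0.295) to 0.05 for Cd5l (SE 0.80, edgeR adjusted p = 0.983), with a median of -0.41, against -0.03 for all genes. The range of the fitted value plus and minus 2 SE was wide. For Clec4f it went from -1.72 to 1.33 and for Adgre1 from -1.96 to 1.78, so a 2-fold difference in either direction lay within it. HFD+eRapa replicates 5, 6, 8 and 9 lay below the whole ND+veh range for 9, 10, 8 and 4 of the genes, and 1 gene in HFD+eRapa replicate 2 (Cd5l) lay above it.

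**Figure D3:**
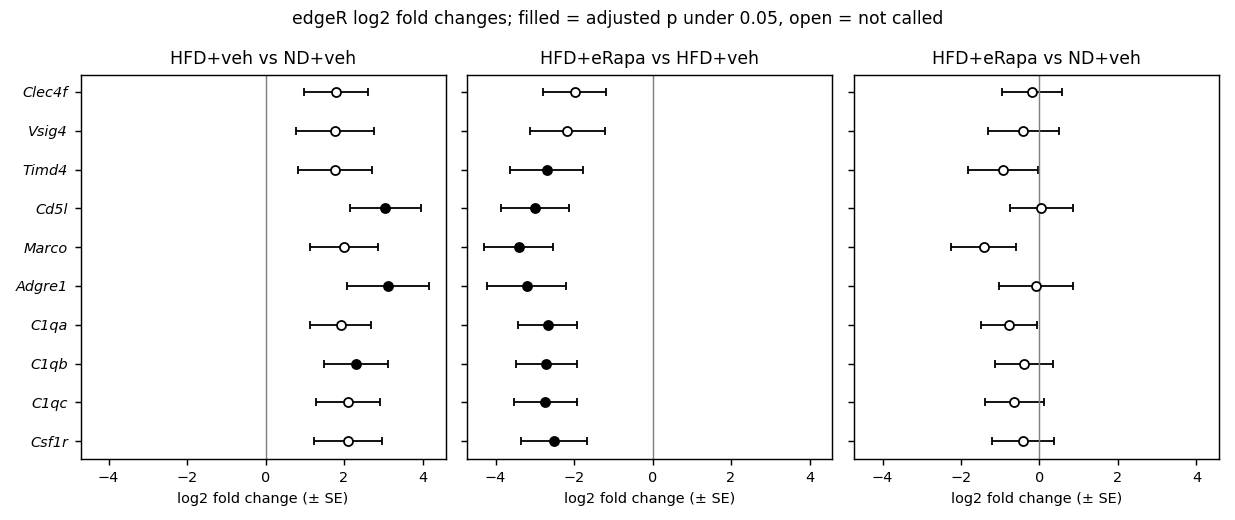
Fitted log2 fold change of each resident Kupffer cell gene with its standard error, in the 3 comparisons, with filled points at an edgeR adjusted p under 0.05. All 10 lie above 0 for HFD+veh against ND+veh (3 filled) and below 0 for HFD+eRapa against HFD+veh (8 filled), and those for HFD+eRapa against ND+veh lie between -1.42 and 0.05 (none filled).

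The genes can also be compared within a library, where all of them were read from the same cell preparation. The counts of each gene were divided by the counts of Clec4f in the same library. Csf1r held the steadiest ratio in ND+veh, from 0.471 through a median of 0.541 to 0.605, over animals whose Clec4f level differed 25.6-fold. In HFD+veh it ran from 0.429 through 0.635 to 0.825, and in HFD+eRapa from 0.206 through 0.450 to 0.625. The ratios are descriptions and were not tested. A ratio removes the number of cells only where both genes come from the same cells, and that was not measured.

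Cd5l per Clec4f was between 0.631 and 1.27 in ND+veh, with a median of 0.879, and between 0.897 and 1.20 in HFD+eRapa, with a median of 1.02. In HFD+veh it ran from 0.941 through 1.42 to 3.20. Adgre1 per Clec4f had a median of 0.210 in ND+veh, 0.320 in HFD+veh and 0.169 in HFD+eRapa, and its highest value was 1.15. Both highest ratios were in HFD+veh replicate 6, so that animal had more Cd5l and Adgre1 beside its Clec4f than any other. The same animal had 28.3 CPM of Marco, below replicates 3, 4, 5 and 7 of its group, and its Marco ratio of 0.0440 was the lowest in HFD+veh.

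Marco per Clec4f ran from 0.0488 to 0.273 in ND+veh, 0.0440 to 0.430 in HFD+veh and 0.0263 to 0.106 in HFD+eRapa, with medians of 0.147, 0.0992 and 0.0588. The chains of C1q were also compared with each other. The counts of C1qc were 0.744 to 0.986 of those of C1qa in ND+veh and 0.805 to 0.992 in HFD+veh. In HFD+eRapa they were 0.422 to 1.01, where the low animals rest on few counts, 19 counts of C1qc in replicate 6. C1qb was 0.850 to 1.14 of C1qa in ND+veh and 1.07 to 1.53 in HFD+veh, with medians of 0.963 and 1.12, and 0.735 to 1.57 in HFD+eRapa, also with a median of 1.12.

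**Figure D4:**
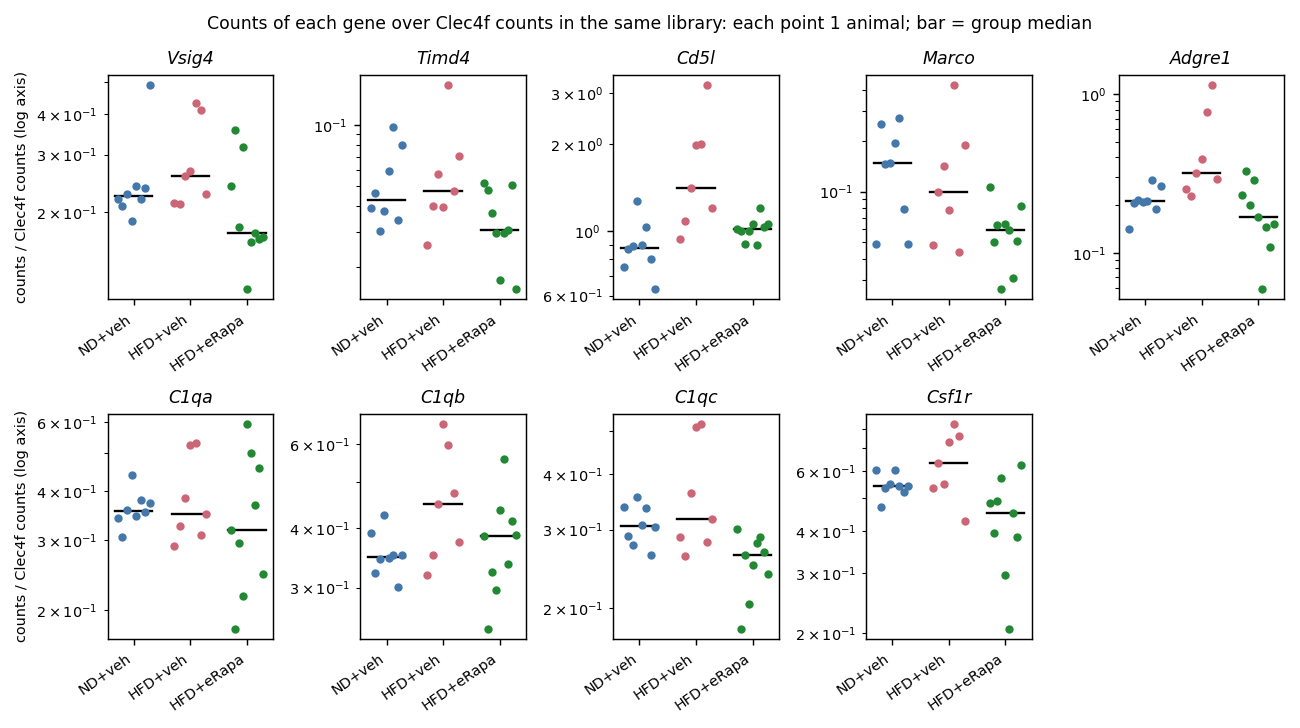
Counts of each of the other 9 genes over the counts of Clec4f in the same library, on log axes, with 1 point per animal and a bar at the group median. Csf1r in ND+veh lies within 0.471 to 0.605, and the highest Cd5l and Adgre1 ratios, 3.20 and 1.15, belong to HFD+veh replicate 6.

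Per length of transcript, as FPKM (fragments per kilobase and M mapped fragments), the order of the genes by median level in ND+veh began with Clec4f at 31.8 FPKM, C1qa at 26.3 FPKM and Cd5l at 26.1 FPKM. C1qb followed at 21.8 FPKM, C1qc at 16.5 FPKM, Vsig4 at 10.8 FPKM and Csf1r at 10.4 FPKM. Marco at 4.50 FPKM, Adgre1 at 3.93 FPKM and Timd4 at 1.22 FPKM were lowest. In HFD+veh, Cd5l was first at 354 FPKM, ahead of C1qb at 230 FPKM and C1qa at 220 FPKM, with C1qc at 170 FPKM and Clec4f at 165 FPKM. In HFD+eRapa, Cd5l at 29.6 FPKM and Clec4f at 29.5 FPKM were level at the top. Timd4 was last in HFD+veh, at 7.45 FPKM, and shared the last place with Marco in HFD+eRapa, both at 0.692 FPKM. The spread between animals of a group, at least 18.6-fold for every gene on the CPM scale, was larger than the step between any neighbours in these orders.

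The genes around the 10 in the pathway of macrophage upkeep moved with them in the rapamycin comparison. Of 7 genes of the Csf1 receptor pathway, 5 rose in HFD+veh against ND+veh and 7 fell in HFD+eRapa against HFD+veh. Tyrobp, an adaptor that carries signals in myeloid cells, rose by 2.81 (SE 0.88, edgeR adjusted p = 0.0240) and fell by 3.01 (SE 0.85, edgeR adjusted p = 0.00998). The ligands Csf1 and Il34 did not pass in the diet comparison (log2 fold changes 0.27 and 0.16). They fell under rapamycin by 0.89 for Csf1 (SE 0.28, edgeR adjusted p = 0.0174) and by 1.70 for Il34 (SE 0.51, edgeR adjusted p = 0.0136). Il34 was also lower in HFD+eRapa than in ND+veh, by 1.54 (SE 0.50, edgeR adjusted p = 0.0414). It was near the floor in every group, with medians of 1.07, 0.772 and 0.325 CPM in ND+veh, HFD+veh and HFD+eRapa.

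Among 8 transcription factors of Kupffer cells and macrophages, 6 rose and 1 fell on the high-fat diet, and 6 fell under rapamycin. Nr1h3 was called in neither comparison (log2 fold changes 0.01 and 0.06, edgeR adjusted p = 0.951 and 0.678). The level of Nr1h3 had medians of 93.9, 91.3 and 99.7 CPM in ND+veh, HFD+veh and HFD+eRapa. Spic, a factor of macrophages that handle iron, rose by 2.71 (SE 0.95, edgeR adjusted p = 0.0391) and fell by 3.85 (SE 0.96, edgeR adjusted p = 0.00499). Its medians were 0.638, 10.4 and 0.806 CPM in ND+veh, HFD+veh and HFD+eRapa, so it was near the floor outside HFD+veh. Spi1, which encodes PU.1, rose by 2.36 (SE 0.78, edgeR adjusted p = 0.0298) and fell by 2.84 (SE 0.76, edgeR adjusted p = 0.00716). Id3 went the other way on the diet. It fell by 0.89 in HFD+veh against ND+veh (SE 0.25, edgeR adjusted p = 0.0150) and was lower by 0.75 in HFD+eRapa than in ND+veh (SE 0.24, edgeR adjusted p = 0.0331). In HFD+eRapa against HFD+veh it was not called (0.14, edgeR adjusted p = 0.702), and it is also made by cells that are not macrophages.

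Of 12 other genes of Kupffer cells, 7 rose and 11 fell in the respective comparisons. Siglec1, a sialic acid-binding receptor of resident macrophages, rose by 2.74 (SE 0.91, edgeR adjusted p = 0.0313) and fell by 3.58 (SE 0.91, edgeR adjusted p = 0.00530), and Il18bp, a secreted antagonist of interleukin-18, rose by 2.65 (SE 0.57, edgeR adjusted p = 0.00291) and fell by 2.54 (SE 0.54, edgeR adjusted p = 0.00189). Folr2 did not pass in the diet comparison (log2 fold change 2.08, edgeR adjusted p = 0.0735) and fell by 2.41 under rapamycin (SE 0.83, edgeR adjusted p = 0.0298). Cd163, the receptor for haemoglobin bound to haptoglobin, passed in neither (log2 fold changes 1.92 and -2.09, edgeR adjusted p = 0.0984 and 0.0568).

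The listed partners of C1q and of Vsig4 in complement, most of which are made by hepatocytes, did not share this pattern. Of 8 such genes, 1 rose and 1 fell on the high-fat diet and 2 fell under rapamycin, and the medians of the log2 fold changes were 0.20 and 0.00. The gene that rose, Cd93, a receptor of endothelial and myeloid cells, had log2 fold changes of 2.06 (SE 0.63, edgeR adjusted p = 0.0220) and -2.70 (SE 0.62, edgeR adjusted p = 0.00304). C1ra, a protease bound by C1q, fell by 0.50 on the diet (SE 0.16, edgeR adjusted p = 0.0231). Besides Cd93, C2 fell under rapamycin, by 0.50 (SE 0.13, edgeR adjusted p = 0.00511).

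The 8 genes outside the set whose log2 CPM followed the mean of the 10 most closely over the 24 libraries were Folr2 (Pearson's r 0.995), Sdc3 (0.990), Cfp (0.990), Itgal (0.990), Slc15a3 (0.989), Treml4 (0.987), Cdh5 (0.987) and Slc11a1 (0.987). They were chosen among genes with a mean log2 CPM of at least 1, and the values have no test. Cdh5 encodes the cadherin of endothelial junctions and is no macrophage gene.

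Genes of endothelial and stellate cells fell with the 10 genes under rapamycin, while on the diet few of them were called. Of 10 endothelial genes, 1 rose on the high-fat diet and 9 fell under rapamycin, with median log2 fold changes of 0.72 and -1.35. Lyve1, a hyaluronan receptor of sinusoidal endothelium, fell by 2.28 (SE 0.64, edgeR adjusted p = 0.00914). Summed endothelial genes ran from 88.1 to 503 CPM in ND+veh, from 120 to 919 CPM in HFD+veh and from 74.3 to 384 CPM in HFD+eRapa, and HFD+veh replicates 3, 4, 5 and 6 were again the highest and HFD+eRapa replicates 5, 6 and 8 the lowest of the 24 libraries. Of 10 genes of stellate cells, 2 rose and 10 fell, with medians of 0.64 and -2.01, and summed levels of 35.1 to 270 CPM, 38.5 to 628 CPM and 23.7 to 101 CPM in the same order of groups.

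Genes of recruited monocytes, general macrophages and leukocytes at large were also listed. Of 12 genes of recruited monocytes and lipid-associated macrophages, 10 rose and 11 fell, with medians of 3.77 and -3.21. Ly6c2 rose by 4.45 (SE 1.06, edgeR adjusted p = 0.00559) and fell by 4.95 (SE 1.04, edgeR adjusted p = 0.00172). It was near the floor, with medians of 0.175, 3.29 and 0.339 CPM in ND+veh, HFD+veh and HFD+eRapa and a highest HFD+veh value of 67.5 CPM. Gpnmb rose by 4.52 (SE 1.03, edgeR adjusted p = 0.00438) and fell by 4.93 (SE 1.01, edgeR adjusted p = 0.00136), with medians of 0.899, 38.3 and 1.69 CPM. The summed level of the 12 genes was 36.2 to 92.7 CPM in ND+veh, 22.5 to 892 CPM in HFD+veh and 12.6 to 66.6 CPM in HFD+eRapa. The highest was again HFD+veh replicate 6. All 8 general macrophage genes fell under rapamycin and 7 rose on the diet, among them Cd68, which encodes a lysosomal protein, with log2 fold changes of 2.63 (SE 0.85, edgeR adjusted p = 0.0275) and -3.10 (SE 0.83, edgeR adjusted p = 0.00734). All 6 pan-leukocyte genes rose and fell likewise. How far the RNA of the resident Kupffer cell genes came from resident cells or from other macrophages was not tested.

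The 9 hepatocyte genes measured gave 2 that fell on the diet and 2 that rose under rapamycin, with medians of -0.11 and 0.24. Cyp2e1, a cytochrome P450 of drug and fatty acid oxidation, was among both, with log2 fold changes of -1.93 (SE 0.32, edgeR adjusted p = 0.00036) and 2.04 (SE 0.32, edgeR adjusted p = 0.00014). No endothelial or pan-leukocyte gene was called in HFD+eRapa against ND+veh, where 6 of 10 stellate genes were lower.

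When the mean level of the endothelial genes in each library was added to the model as a covariate, a fit chosen after seeing the data, 0 of the 10 Kupffer cell genes were called in the rapamycin comparison. Of all 13847 genes, 1003 were called there in that fit, against 4432 without the covariate. The log2 fold change of Marco was then -1.02 (edgeR adjusted p = 0.386), Cd5l -0.23 and C1qa -0.22, and Clec4f and Vsig4 turned positive, at 0.11 and 0.31. In the diet comparison 5 were called higher in that fit, Cd5l with 1.32 (edgeR adjusted p = 0.00261), Adgre1 with 1.40 (edgeR adjusted p = 0.0189), C1qa with 0.75, C1qb with 0.95 and C1qc with 0.82. In HFD+eRapa against ND+veh 3 of the 10 were called higher, Cd5l with 1.09 (edgeR adjusted p = 0.00529), Adgre1 with 1.15 (edgeR adjusted p = 0.0394) and C1qb with 0.76 (edgeR adjusted p = 0.0198). Of all genes, that fit called 2639 in the diet comparison and 2877 in HFD+eRapa against ND+veh. The covariate follows the 10 genes closely and was built from the same libraries, with 9 of its 10 genes called lower under rapamycin. The fit therefore cannot say how much of each change was due to the share of non-hepatocytes in a preparation, and this was not tested.

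**Figure D5:**
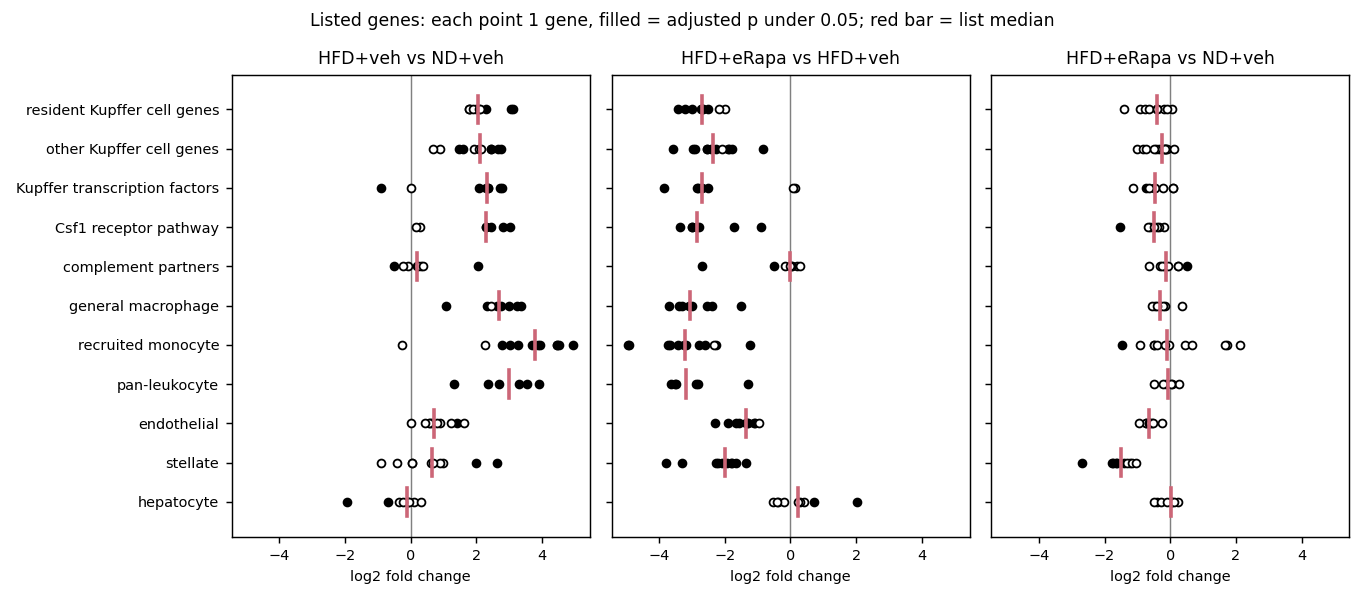
Fitted log2 fold change of each tested gene of the resident Kupffer cell set and of 10 other lists in the 3 comparisons, with filled points at an edgeR adjusted p under 0.05 and a red bar at the list median. The Kupffer cell, macrophage and leukocyte lists lie to the right for HFD+veh against ND+veh and to the left for HFD+eRapa against HFD+veh, the endothelial and stellate lists share the second shift (medians -1.35 and -2.01), and the hepatocyte list has medians of -0.11 and 0.24 in these comparisons, with a called gene at -1.93 and 2.04 (Cyp2e1).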

How the data were processed

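Per the labels, poly(A) RNA of hepatocytes from 24 mice was sequenced. The authors aligned reads with STAR to mm10 (Gencode M23), filtered with SAMtools 1.1.0 and counted with HTSeq 0.11.2, so the deposited counts are raw reads per gene, and the strand setting is not given in the sources used here. The deposited FPKM values were made by the authors with Cufflinks. Groups came from the sample titles.

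Counts were tested with edgeR 4.0.16 in R 4.3.3 (filterByExpr, TMM, robust glmQLFit, glmQLFTest) in 1 fit of all 24 libraries without covariates, with Benjamini-Hochberg adjustment over 13847 genes, and SE was the absolute log2 fold change over the square root of F. Log2 CPM used a prior count of 2. Alternatives used DESeq2 1.42.0, limma 3.58.1 and other settings. The scripts were tested on simulated data. No pair of libraries within a group agreed within sampling noise (chi-square per degree of freedom at least 12.9 over 85 pairs). Intervals are 95% Wilson intervals and cover counting error only.

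The members and lists were chosen with earlier results of these data known. Always named were the 10 members, the first 2 genes of each list, up to 3 called genes per list and comparison with the largest change, and the 8 genes most like the members, and of these 77 genes the text names the members, the 8 and some others. The 15 other lists held 126 genes, of which 125 were in the table, and 1 more transcription factor is not reported here. Lymphocyte, neutrophil, dendritic, cholangiocyte and erythroid lists had 1, 4, 4, 2 and 3 genes tested, of which 0, 2, 3, 2 and 2 rose on the diet, 0, 2, 4, 0 and 0 fell under rapamycin, and 0, 0, 0, 0 and 1 rose under rapamycin. In HFD+eRapa against ND+veh 3 erythroid genes rose and none of the others was called. On the diet, Hbb-bs and Hba-a1 rose by 5.96 and 5.34 on the log2 scale, while Alas2 was not called (0.23). Summed erythroid genes were highest in HFD+veh replicate 6, at 662.4 CPM, against a group median of 100.5 CPM. Positions came from Gencode M21, with the same identifiers as the counts.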

Additional observations from a re-analysis of the deposited data

Results flagged for a closer look

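In ND+veh replicate 8, the counts of Vsig4 over those of Clec4f stood apart from the other 7 animals of the group, at -1.03 on the log2 scale, where the next highest animal was at -2.06. The same animal had the highest Clec4f level of ND+veh, 296 CPM, and 145 CPM of Vsig4. Of 63 sets of group values examined for a single distant animal, 1 was marked, and chance marks about 1 in 20.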

How the results depend on the processing

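Among the 10 resident Kupffer cell genes, the number called in HFD+veh against ND+veh was 3, and it was 1 with no filter on low counts, 6 with DESeq2, 0 with limma voom, 0 with log2(FPKM + 0.1) or log2(FPKM + 1) in limma and 5 with the endothelial covariate. With 1 animal left out it ran from 0 to 8. In HFD+eRapa against HFD+veh it was 8, and it was 0 with the endothelial covariate and 5 to 10 with 1 animal left out. In HFD+eRapa against ND+veh it was 0, 3 with the endothelial covariate and 0 with any animal left out. Over all genes, calls in the diet comparison fell from 3584 to 2333 with the compared groups alone, 2242 with log2(FPKM + 0.1) and 1585 when a log2 change of at least 1 was also required, and they ran from 2106 to 4479 with an animal left out. They were 2933 with no filter on low counts, 4101 with DESeq2, 2652 with limma voom, 2688 with log2(FPKM + 1) and 2639 with the endothelial covariate. Those of the rapamycin comparison went from 4432 to 1003 with the endothelial covariate and 2284 with the fold requirement, and those of HFD+eRapa against ND+veh from 1865 to 2877 and 711. With an animal left out, calls of the rapamycin comparison ran from 3269 to 5061.

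The replicate numbers are shared between groups, but the animals differ, and not every same-numbered pair deviated together. Of the pairs, 5 of 7, 2 of 7 and 2 of 8 had r over 0.1 in the 3 comparisons (mean r 0.32, -0.24 and -0.20), with 2, 0 and 0 libraries closest to their own number. With a replicate block, 0 of the 10 genes were called in each comparison. Of all genes, the block left 2461 called on the diet, 2532 under rapamycin and 1575 in HFD+eRapa against ND+veh. The block turned in HFD+eRapa against ND+veh the sign of Clec4f (0.38), Vsig4 (0.64), Timd4 (0.20), Adgre1 (0.81), C1qa (0.019), C1qb (0.29), C1qc (0.039) and Csf1r (0.25). With the endothelial covariate these were 0.78, 0.92, 0.71, 1.15, 0.52, 0.76, 0.50 and 0.54. Cd5l turned to -0.49 with voom, -0.59 with log2(FPKM + 0.1) and -0.51 with log2(FPKM + 1). In HFD+eRapa against HFD+veh the covariate turned Clec4f (0.11), Vsig4 (0.31) and Folr2 (0.081). Leaving out 1 animal gave, for HFD+eRapa against ND+veh, ranges of -0.68 to 0.36 for Clec4f, -1.13 to 0.73 for Vsig4, -0.43 to 0.37 for Cd5l, -0.78 to 0.54 for Adgre1, -0.73 to 0.14 for C1qb and -0.77 to 0.14 for Csf1r. The causes were not tested. The lowest library, HFD+eRapa replicate 6, limits the values of Timd4, Marco and Adgre1, which rested there on 2, 4 and 4 counts. Timd4 also had only 3 and 4 counts in HFD+eRapa replicates 5 and 9.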
